A study of Mus musculus with 8 samples.

Results

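Among the 56923 genes counted in mouse thymic epithelial cells (TECs), 76 were expressed *in vivo*, at least 4-fold lower in TEC organoids at day 3 (D3) and higher again at day 7 (D7). They were chosen on CPM, a gene's reads scaled to the total of its library, averaged over the 2 libraries of each group. A member had at least 10 CPM *in vivo*, at least 4 times its D3 level, and a D7 level of at least 3 times D3 after 1 CPM was added to both. A fixed set of genes, several with known roles in TECs (*Foxn1*, *Dll4*, *Psmb11*, *Prss16*, *Tbata*, *Crip3*, *Slc46a2*, *Ly75*, *Enpep*, *Vcam1*, *Trpm2*, *Ccl25*, *Cd74*, *Ciita*, *Cxcl10*, *Mmp9*, *Tgm2*, *Myh11* and the H2 genes of the major histocompatibility complex) were left out by name, and 16 of these met the same thresholds. The *in vivo*, D3 and D7 values chose the members, so they are described here without a test.

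The series held 8 bulk RNA sequencing libraries, 2 for each of 4 groups, all from untreated wild-type C57BL/6J mice and all started from EpCAM-positive cells sorted from E16.5 thymi. The study's antibody panel for this sort also held PDGFR-alpha and PDGFR-beta, which mark mesenchymal cells, and CD45, which marks blood cells. *In vivo* TECs were lysed right after the sort. 2D-cultured TECs grew on laminin and were collected as a confluent monolayer after 3 days, and organoids grew in Matrigel, a basement membrane gel, for 3 or 7 days. The culture medium held the growth factor FGF7, and for organoids the study describes an added inhibitor, thiazovivin, during the first 2 days. No 2D culture of 7 days was analysed here (the study describes loss of cells in longer monolayer culture), so time and format cannot be told apart between 2D and D7. The labels call the replicates biological and the study counts them as 2 mice per condition, and whether a library pooled several embryos is not given in the sources used here.

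TECs form the stroma in which T cells develop. Cortical TECs support early thymocytes under the control of the transcription factor FOXN1, whereas medullary TECs display peripheral self-antigens, partly under the control of AIRE. TECs taken into monolayer culture are known to lose much of this programme. The 76 members lie largely outside that textbook set, in part because the rule left several of its genes out by name. Among the members, 69 are protein-coding genes, 5 are long non-coding RNAs (lncRNAs), 1 is a processed pseudogene and 1 is a gene model of uncertain status.

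The stretches of DNA upstream of 4 members show the range of their promoters and one position that ties a member to a known TEC gene. *Kndc1*, *Olfml1* and *Gm14207* had no read in either 2D library, and *Col8a2* passed its *in vivo* level at D7. Each sequence is read on the gene's own strand, 5′ to 3′, from the GRCm39 genome at the start of the canonical GENCODE transcript. Capitals mark CG dinucleotides, the site of DNA methylation in mammals. *Col8a2* stands for a CG-rich start, *Kndc1* and *Olfml1* for CG-poor ones, and the *Gm14207* stretch is the whole interval between its start and the start of *Dll4* on the other strand.
The stretches lie at chr4:126180309-126180558 (plus strand), chr7:139474362-139474611 (plus strand), chr7:107166389-107166638 (plus strand) and chr2:119156104-119156169 (minus strand), all outside the transcribed part of their canonical transcript.
Col8a2: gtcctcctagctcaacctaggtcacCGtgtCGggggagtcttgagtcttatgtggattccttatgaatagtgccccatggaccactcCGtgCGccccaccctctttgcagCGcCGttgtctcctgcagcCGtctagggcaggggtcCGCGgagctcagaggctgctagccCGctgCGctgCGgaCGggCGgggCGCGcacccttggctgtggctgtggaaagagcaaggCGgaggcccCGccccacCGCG
Kndc1: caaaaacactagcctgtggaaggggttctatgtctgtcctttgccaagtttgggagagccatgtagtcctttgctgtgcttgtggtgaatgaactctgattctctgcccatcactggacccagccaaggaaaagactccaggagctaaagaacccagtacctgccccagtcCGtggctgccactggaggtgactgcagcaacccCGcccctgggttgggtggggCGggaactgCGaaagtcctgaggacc
Olfml1: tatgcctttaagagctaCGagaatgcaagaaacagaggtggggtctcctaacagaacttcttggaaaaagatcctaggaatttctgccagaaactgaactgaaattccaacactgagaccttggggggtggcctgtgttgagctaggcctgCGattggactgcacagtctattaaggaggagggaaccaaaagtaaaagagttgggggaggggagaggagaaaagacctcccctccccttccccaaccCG
Gm14207: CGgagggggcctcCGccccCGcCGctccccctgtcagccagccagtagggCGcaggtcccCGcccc
The *Col8a2* stretch held 20 CG dinucleotides in 250 bases, the *Kndc1* stretch held 4 and the *Olfml1* stretch held 3. *Gm14207*, an lncRNA of the minus strand, and *Dll4*, the Notch ligand that TECs present to T-cell progenitors, began 66 bases apart and pointed away from each other. *Gm14207* was counted at 53.2 and 70.7 CPM *in vivo*, 1.24 and 0.305 CPM at D3, 13.005 and 14.6 CPM at D7 and 0 in 2D. *Dll4*, one of the genes left out by name, averaged 113 CPM *in vivo*, 0.470 CPM at D3, 10.01 CPM at D7 and 0.247 CPM in 2D. The pair was thus low and high in the same groups. A longer model of *Gm14207* overlaps the start of *Dll4*, and since the strand used in counting is not given in the sources used here, reads of the overlap cannot be told apart.

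Fewer members than genes tested had a CG-rich start. The CpG ratio (CG dinucleotides observed over those expected from base composition) was computed from 250 bases before to 50 bases after each start. It was at least 0.6 for 28.9% of the 76 members, against 60.8% of 14465 genes tested and 23.4% of all 56234 annotated genes. Among protein-coding genes alone the shares were 29.0% of members and 64.9% of genes tested. A share of 36.1% was found for the 463 placed genes that passed the same thresholds *in vivo* and at D3 but not at D7. A low share thus also marked genes not regained. Their loss was smaller, with a median D3 level of 8.78% of *in vivo* against 3.81% for members. Median GC content was close, 56.5% in members and 57.7% in genes tested.

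**Figure D1:**
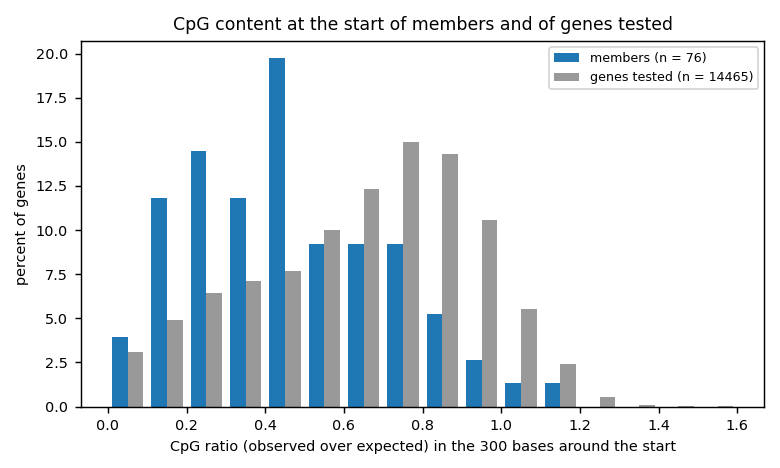
CpG ratio of the window around the transcription start (x axis, observed over expected) against the percent of genes in each bin (y axis), for the 76 members and the 14465 genes tested with a window. The members peak below 0.6 and the genes tested peak between 0.7 and 0.9.

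No motif was more frequent in the members than in both backgrounds by more than its interval. Of 10 motifs searched on both strands of the same windows, the core GACGC of the FOXN1 site was found in 27.6% of members (95% Wilson interval 18.8 to 38.6%), between the 18.6% of all promoters and the 39.0% of promoters of genes tested. TGACG, the core of a cyclic AMP response element, which can overlap GACGC, was found in 11.8% of members, 15.8% of all promoters and 28.2% of those tested. GGGNNTTCC, a form of the NF-kappaB site, was found in 9.21% of members, 4.72% of all promoters and 6.92% of those tested. CAGCTG (E-box), TGANTCA (AP-1), GGAAGT (ETS), TTCNNNGAA (STAT), TGGGAA (RBPJ), TATAAA and GAANNGAAA (interferon-stimulated) were found in 7.89 to 30.3% of members. Both backgrounds lay inside the Wilson interval of the members for each of these 7 motifs.

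As a set, the members were low in D3 organoids and came back in part by D7. Their summed level was 4018 and 4118 CPM in the *in vivo* libraries, 221 and 262 CPM at D3, 1411 and 1457 CPM at D7, and 561 and 547 CPM in 2D. The median member lay at 28.7 CPM *in vivo*, 1.30 CPM at D3, 10.3 CPM at D7 and 1.19 CPM in 2D. At 3 counts or fewer in both libraries, taken as the floor of detection (a mean of 0.495 CPM at D3 and 0.492 CPM in 2D), were 17 members at D3 and 22 in 2D. No read was seen in either library for 7 members at D3 (*Ppp1r27*, *Gm37563*, *Kcnq3*, *Dnah9*, *Olfml1* and *Gm56503* among them) and for 8 in 2D. Others stayed well detected, and the highest D3 mean was 37.3 CPM, that of *Parm1*. All 76 were detected in each *in vivo* and each D7 library. In these bulk libraries a lower value can mean fewer cells that express the gene or less RNA per cell, which cannot be told apart.

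**Figure D2:**
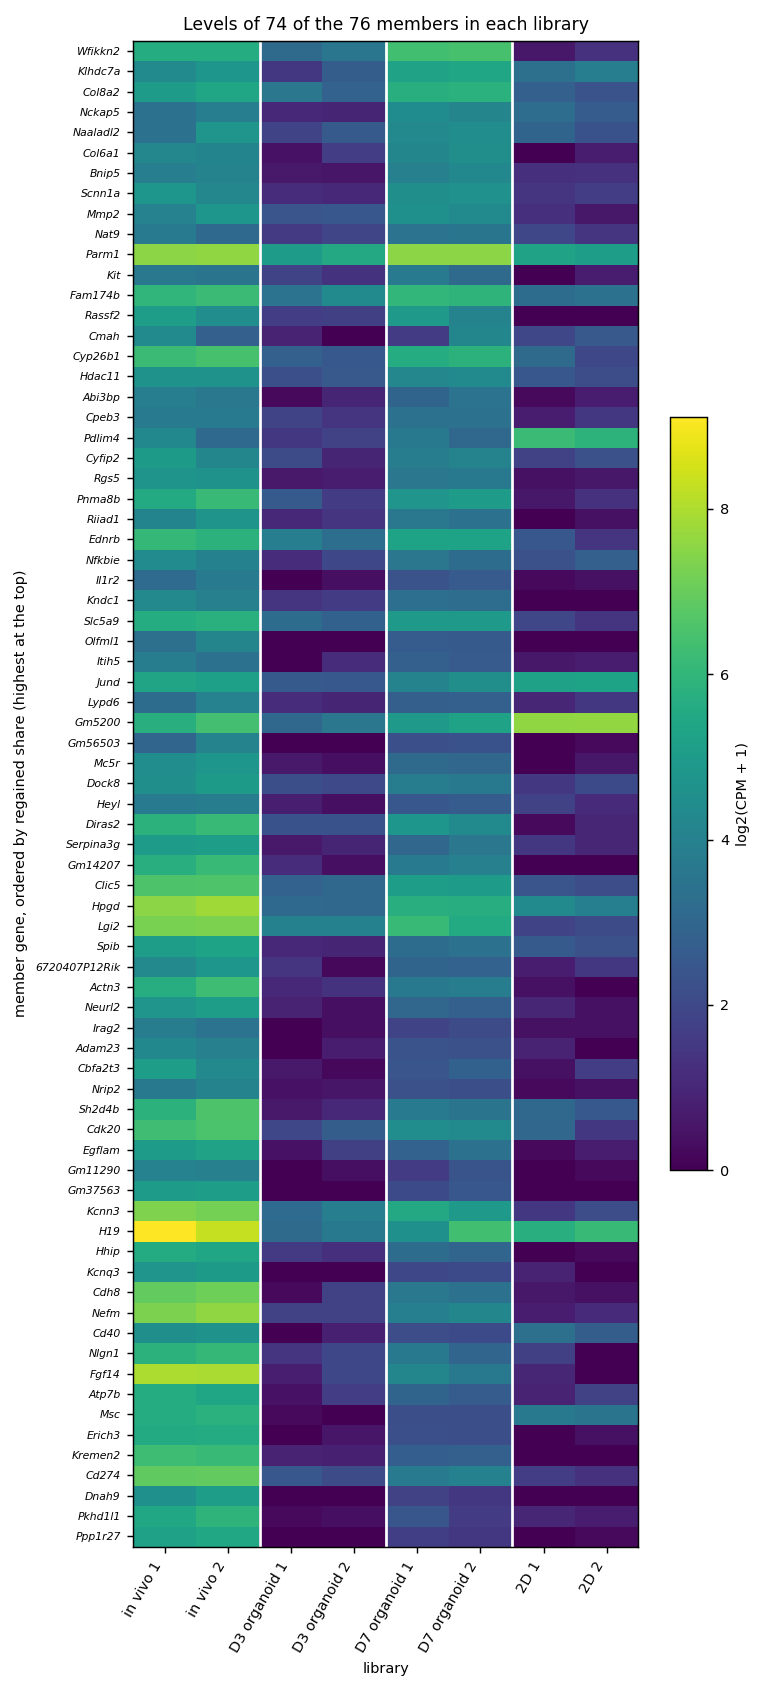
Level of 74 of the 76 members (rows, ordered by regained share) in each of the 8 libraries (columns), as log2(CPM + 1). The D3 columns are dark in nearly all rows, the D7 columns lie between D3 and *in vivo*, and the 2D columns are dark except for a few rows such as *Gm5200*, *Pdlim4*, *H19* and *Jund*.

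The extent of the return differed widely between members. It was measured as the regained share, the log2 difference from D3 to D7 divided by that from D3 to *in vivo*, on group means with 1 CPM added, so that 0 is the D3 level and 1 the *in vivo* level. The median share was 0.61, 55 members had a share of at least 0.5 and 10 reached at least 1. On the CPM scale the median member stood at 34.7% of its *in vivo* level at D7, 3.81% at D3 and 3.10% in 2D. The D7 libraries overlapped the *in vivo* ones for 12 members and lay above both for 4. These values had entered the rule, and no share over all genes is given for either count.

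The 4 genes above their *in vivo* range were *Wfikkn2*, *Klhdc7a*, *Col8a2* and *Nckap5*. *Wfikkn2*, a secreted protein that binds the growth factors GDF8 and GDF11, lay at 48.5 and 49.0 CPM *in vivo*, 7.80 and 10.8 CPM at D3 and 81.4 and 87.5 CPM at D7, a share of 1.34. *Klhdc7a* lay at 19.1 and 26.7 CPM *in vivo*, 1.77 and 5.49 CPM at D3 and 37.2 and 40.9 CPM at D7. *Nckap5* lay at 9.63 and 14.0 CPM *in vivo*, 1.06 and 0.914 CPM at D3 and 20.6 and 16.7 CPM at D7. For these 3 genes both D7 libraries were above both *in vivo* libraries, by a wide gap for *Wfikkn2* and a narrow one for *Nckap5*. The lowest shares belonged to *Ppp1r27* (0.30), *Pkhd1l1* (0.33), *Dnah9* (0.34), *Cd274* (0.35) and *Kremen2* (0.35), which reached between 5.08 and 11.8% of their *in vivo* level.

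**Figure D3:**
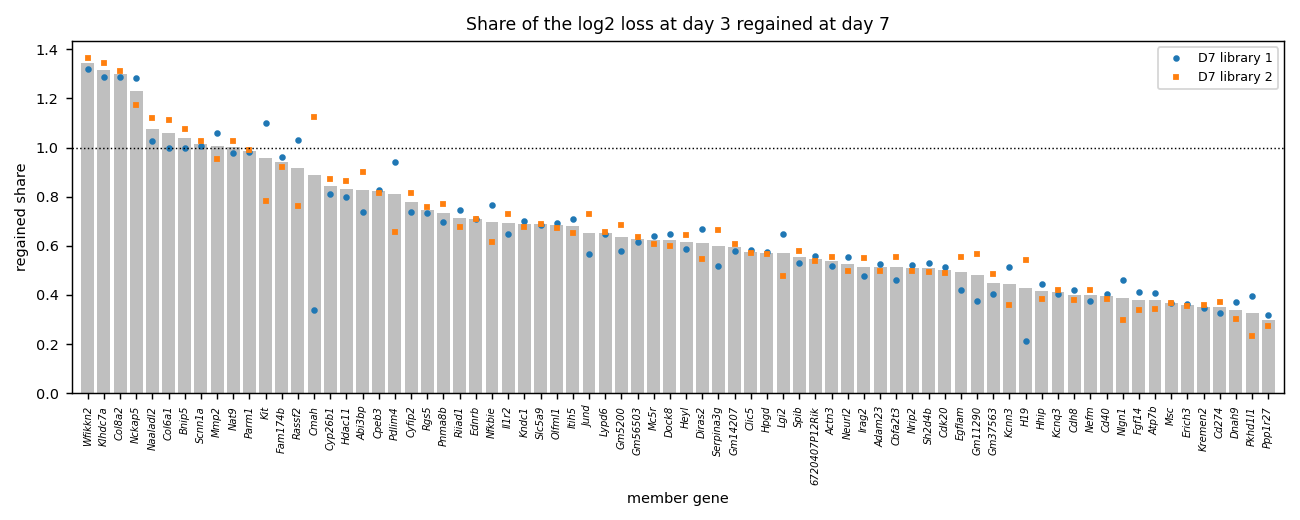
Regained share (y axis, 0 is the D3 level and 1 the *in vivo* level on a log2 scale) of 74 of the 76 members in falling order (x axis). Bars use the mean of both D7 libraries and dots use each D7 library alone, and the dots lie far apart for *Cmah* and *H19*.

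Members that encode receptors, inhibitors of signalling and enzymes that clear lipid signals numbered 10, and they included some of the fullest returns. *Cyp26b1*, which breaks down retinoic acid, lay at 73.9 and 87.0 CPM *in vivo*, 5.85 and 4.72 CPM at D3, 49.4 and 57.4 CPM at D7 and 7.91 and 2.93 CPM in 2D. *Hpgd*, which inactivates prostaglandins, lay at 183 and 221 CPM *in vivo*, 7.62 and 7.47 CPM at D3, 51.8 and 50.7 CPM at D7 and 19.4 and 14.2 CPM in 2D. Both enzymes were separated between all groups except *Cyp26b1* between D3 and 2D, where the libraries overlapped. *Ednrb*, a receptor for endothelins, lay at 65.3 and 56.3 CPM *in vivo*, 13.8 and 8.69 CPM at D3, 37.7 and 37.6 CPM at D7 and 4.61 and 1.63 CPM in 2D. *Kit*, the receptor for stem cell factor, lay at 11.6 and 10.3 CPM *in vivo*, 2.66 and 1.52 CPM at D3, 12.6 and 7.87 CPM at D7 and 0 and 0.652 CPM in 2D. *Kremen2*, a receptor for the Wnt inhibitors of the Dickkopf family, returned far less, from 77.6 and 71.7 CPM *in vivo* and 0.887 and 0.762 CPM at D3 to 5.65 and 5.90 CPM at D7. The median share of the 10 was 0.67, and *Hhip* (a binder of hedgehog proteins), *Mc5r* (a melanocortin receptor) and *Rgs5* (a brake on G protein signalling) had shares between 0.42 and 0.75.

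Members of the matrix group came back to a median share of 0.83. *Mmp2*, a protease that cuts basement membrane collagen, lay at 15.4 and 26.4 CPM *in vivo*, 4.26 and 4.57 CPM at D3, 22.9 and 19.5 CPM at D7 and 1.32 and 0.489 CPM in 2D. *Col6a1*, a chain of collagen VI, lay at 17.5 and 16.4 CPM *in vivo*, 0.355 and 2.13 CPM at D3, 16.9 and 21.6 CPM at D7 and 0 and 0.652 CPM in 2D. *Col8a2*, a chain of collagen VIII, lay at 30.6 and 41.3 CPM *in vivo*, 11.2 and 6.25 CPM at D3, 53.3 and 55.1 CPM at D7 and 5.93 and 4.07 CPM in 2D. For all 3 genes the D7 libraries reached the *in vivo* range or passed it. *Abi3bp*, *Egflam*, *Itih5* and *Olfml1*, the other matrix genes, had shares of 0.49 to 0.83. The sum of a list of 10 mesenchymal markers was also lower at D3 than *in vivo* and at D7, and it was higher in 2D than at D3. Its summed levels were of 72.8 to 102 CPM *in vivo*, 24.7 to 28.2 CPM at D3, 74.9 to 87.9 CPM at D7 and 37.6 to 42.2 CPM in 2D. *Dcn* made up much of it at D7, with 18.4 and 23.4 CPM *in vivo*, 7.45 and 3.66 CPM at D3, 56.7 and 50.7 CPM at D7 and 1.32 and 4.07 CPM in 2D. The markers differed in 2D. The mean of *Dcn* was lower in 2D than at D3, as for *Mmp2*, *Col6a1* and *Col8a2*. *Col1a1* was higher, with 11.7 and 8.47 CPM in 2D and 1.06 and 0.914 CPM at D3. *Pdgfra* was at 0 in both *in vivo* libraries, and *Pdgfrb* was at 0 in both D3 libraries and in one D7 library. *Thy1*, which thymocytes also express, made up 50.1 and 21.6 CPM of the list *in vivo*. The part of mesenchymal cells, which the sort panel was able to mark, in the matrix result was not tested.

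The 8 members that act in transcription or chromatin came back to a median share of 0.55. *Spib*, an ETS factor that medullary TECs share with B cells, lay at 32.9 and 37.8 CPM *in vivo*, 1.06 and 0.914 CPM at D3, 8.28 and 9.64 CPM at D7 and 4.94 and 3.75 CPM in 2D. *Msc* (musculin), a repressor of the helix-loop-helix family, lay at 49.4 and 55.7 CPM *in vivo*, 0.177 and 0 CPM at D3, 3.55 and 3.54 CPM at D7 and 11.9 and 10.4 CPM in 2D. For *Spib* the D7 libraries were above the 2D libraries, and for *Msc* they were below them. *Heyl*, a Notch target, lay at 12.4 and 13.6 CPM *in vivo*, 0.709 and 0.305 CPM at D3, 4.60 and 5.31 CPM at D7 and 2.47 and 1.14 CPM in 2D. *Jund*, an AP-1 subunit, lay at 39.0 and 34.1 CPM *in vivo*, 4.96 and 4.72 CPM at D3, 15.8 and 21.6 CPM at D7 and 36.2 and 37.8 CPM in 2D, so that monolayers held its *in vivo* level. *Hdac11*, a histone deacetylase, had the highest share of the 8, 0.83.

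Immune signalling members numbered 6. *Cd274*, which encodes the checkpoint ligand PD-L1, lay at 117 and 121 CPM *in vivo*, 4.61 and 3.20 CPM at D3, 12.9 and 15.1 CPM at D7 and 2.14 and 1.47 CPM in 2D. *Cd40*, a receptor through which T cells signal to medullary TECs, lay at 22.4 and 24.3 CPM *in vivo*, 0 and 0.762 CPM at D3, 3.42 and 3.15 CPM at D7 and 9.22 and 5.38 CPM in 2D. *Cd274* was thus separated in the order *in vivo*, D7, D3, 2D and *Cd40* in the order *in vivo*, 2D, D7, D3. *Nfkbie*, an inhibitor of NF-kappaB, had a share of 0.69, and *Il1r2*, a decoy receptor for interleukin 1, had the same share to 2 decimals from 8.06 and 12.6 CPM *in vivo*. Thymocyte markers differed between the same groups. Their 16 genes summed to 957 and 389 CPM *in vivo* and to between 4.43 and 14.8 CPM in every culture, with no return at D7. The part of thymocytes, which carry CD45, in the *in vivo* levels was not tested.

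A list of 22 medullary TEC genes holds 3 members, *Cd40* and *Spib* among them, and the rest of that list was mixed. *Aire* lay at 5.25 and 10.3 CPM *in vivo* and at no more than 0.131 CPM in any culture. *Fezf2*, the other regulator of self-antigens, lay at 6.65 and 12.6 CPM *in vivo* and had no read in any culture. Of the 18 list genes tested, 9 rose and 2 fell from D3 to D7, with a median log2 change of 0.45 against 0.06 for all genes tested, and 10.9% of all genes rose and 9.91% fell (edgeR, adjusted p of at most 0.05). The 3 members are in this count, and the rule had used that contrast for them. None of the 25 listed cortical TEC genes is a member, and 9 of the 16 genes left out by name are on that list.

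Of the members, 7 are better known from neurons and 6 encode channels or transporters of several tissues. *Fgf14*, an intracellular regulator of sodium channels, lay at 254 and 244 CPM *in vivo*, 0.709 and 2.90 CPM at D3, 16.9 and 11.8 CPM at D7 and 0.988 and 0 CPM in 2D. *Nefm*, a neurofilament subunit, lay at 158 and 192 CPM *in vivo*, 2.48 and 2.44 CPM at D3, 14.2 and 17.1 CPM at D7 and 0.659 and 1.14 CPM in 2D. *Cdh8*, a cadherin, lay at 120 and 137 CPM *in vivo*, 0.177 and 2.44 CPM at D3, 11.6 and 9.64 CPM at D7 and 0.494 and 0.326 CPM in 2D. These 3 genes and the synaptic adhesion gene *Nlgn1* regained shares of only 0.38 to 0.40 and stood between 5.77 and 15.004% of their *in vivo* level at D7. *Lgi2*, a secreted synaptic protein, held more, at 153 and 159 CPM *in vivo*, 14.9 in each D3 library, 69.2 and 46.2 CPM at D7 and 2.64 and 3.26 CPM in 2D. *Kcnn3*, a calcium-activated potassium channel, lay at 161 and 146 CPM *in vivo*, 8.16 and 14.0 CPM at D3, 43.7 and 29.1 CPM at D7 and 1.81 and 3.42 CPM in 2D. *Scnn1a*, a subunit of the epithelial sodium channel, was back at its *in vivo* level, with 26.4 and 17.4 CPM *in vivo*, 1.24 and 1.07 CPM at D3 and 22.2 and 23.4 CPM at D7. The median shares were 0.40 for the 7 neuronal genes and 0.51 for the 6 channels and transporters.

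The remaining members were diverse. *Parm1*, a mucin-like membrane protein, returned to its *in vivo* level, with 183 and 193 CPM *in vivo*, 30.9 and 43.7 CPM at D3, 183 and 185 CPM at D7 and 37.2 and 33.9 CPM in 2D. *Fam174b* followed the same course at 63.6 and 72.8 CPM *in vivo*, 10.1 and 19.5 CPM at D3 and 64.4 and 60.4 CPM at D7. Among 5 genes of muscle, actin or cilia, *Actn3*, the actinin of fast muscle, lay at 50.3 and 76.1 CPM *in vivo*, 1.06 and 1.52 CPM at D3, 11.95 and 13.6 CPM at D7 and 0.329 and 0 CPM in 2D, and *Dnah9*, a dynein heavy chain of motile cilia, had no read at D3 or in 2D and 2.496 and 1.77 CPM at D7. *Pdlim4*, an actin-associated LIM protein, went the other way in monolayers, with 18.2 and 7.57 CPM *in vivo*, 1.77 and 2.44 CPM at D3, 11.7 and 7.28 CPM at D7 and 72.3 and 58.7 CPM in 2D. Replicates did not match for *H19*, an imprinted lncRNA, at D7 (22.9 and 79.8 CPM) or for *Cmah*, a sialic acid hydroxylase, at D7 (2.10 and 17.3 CPM). *H19* lay at 552 and 317 CPM *in vivo*, 7.98 and 11.7 CPM at D3 and 53.4 and 71.0 CPM in 2D.

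**Figure D4:**
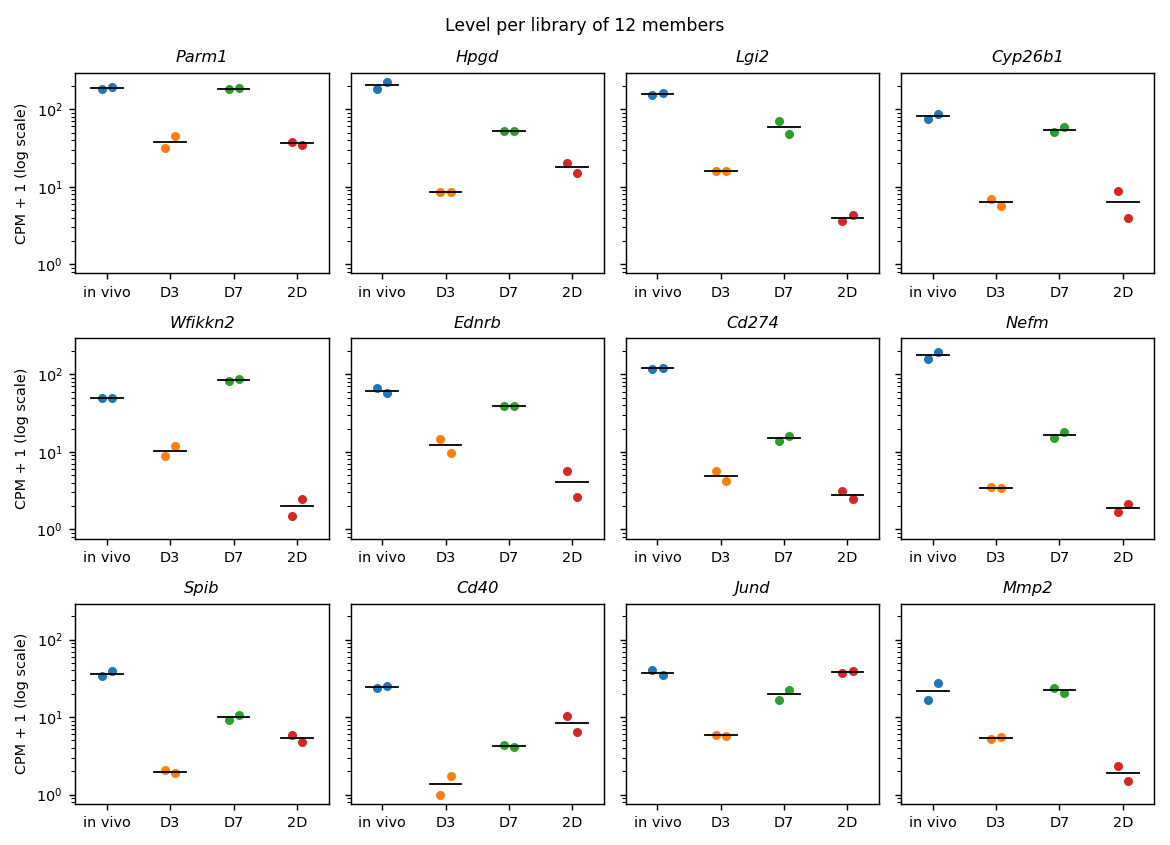
Level (CPM + 1, log axis) of 12 members in each library (dots) with the mean of the 2 libraries (line), for *in vivo* TECs, D3 and D7 organoids and 2D-cultured TECs. *Parm1* and *Mmp2* are level between *in vivo* and D7, *Cd274* and *Nefm* remain well below, and *Jund* is as high in 2D as *in vivo*.

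The 2D libraries had no part in choosing the members, and the comparisons with 2D ask how monolayers of the same age as D3 organoids stood. The other group of each comparison did enter the rule. Since the rule had required a high *in vivo* level, the comparison of *in vivo* TECs with 2D is not independent of the choice of members. *In vivo* TECs were higher than 2D-cultured TECs for 70 of the 76 members (edgeR quasi-likelihood test, adjusted p of at most 0.05), a share of 92.1% where 21.7% of all 14504 genes tested were higher. The genes that met the loss thresholds but were not regained, 382 of which were tested, had a share of 83.0%. Their loss was smaller, with a median log2 fold change *in vivo* over D3 of 3.15 against 4.81 for members. Only *Gm5200* and *Pdlim4* were lower *in vivo* than in 2D, where 19.9% of all genes were. *Jund*, *Klhdc7a*, *Cmah* and *Nckap5* did not pass the test. The median log2 fold change of the members was 4.76, or 4.72 with the 8 members that had no 2D read set to their bound, against 0.06 for all genes tested. *Nefm* had a log2 fold change of 7.39 ± 0.31 (SE, adjusted p = 9.3e-12, edgeR), *Cd274* of 5.85 ± 0.30 (adjusted p = 8.65e-11, edgeR), *Hpgd* of 3.41 ± 0.20 (adjusted p = 5.19e-10, edgeR) and *Parm1* of 2.23 ± 0.18 (adjusted p = 2.45e-08, edgeR). *Klhdc7a* had 0.79 ± 0.34 (adjusted p = 0.0706, edgeR) and *Nckap5* 0.61 ± 0.37 (adjusted p = 0.2, edgeR).

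D7 organoids were also above monolayers for most members. They were higher for 65 of 76 (edgeR, adjusted p of at most 0.05), a share of 85.5% where 24.4% of all genes were higher. The rule had required these D7 levels to lie above D3, so the comparison is not independent of the choice of members. Of the genes that met the loss thresholds but were not regained, which the D7 threshold had set apart, 27.7% were higher. The median log2 fold change of the members was 3.17, or 3.05 with members unread in 2D at their bound. It was 0.10 for all genes and 0.05 for those not regained. *Wfikkn2* had a log2 fold change of 6.20 ± 0.34 (adjusted p = 3.0e-10, edgeR), *Col6a1* of 5.60 ± 0.71 (adjusted p = 6.09e-06, edgeR), *Lgi2* of 4.08 ± 0.26 (adjusted p = 1.72e-09, edgeR), *Ednrb* of 3.39 ± 0.35 (adjusted p = 6.68e-07, edgeR) and *Cyp26b1* of 3.10 ± 0.31 (adjusted p = 4.79e-07, edgeR). The sizes of some rested on 1 low 2D library. Without 2D replicate 1 the log2 fold change was 4.62 for *Col6a1*, 5.60 for *Wfikkn2*, 4.28 for *Ednrb* and 3.94 for *Cyp26b1*, and without 2D replicate 2 it was 9.90 for *Col6a1* and 7.18 for *Wfikkn2*, with each call kept. Against the limit that 3 counts per 2D library allow, *Rassf2* (a Ras-association domain protein) was at least 46.0-fold higher at D7, *Gm14207* at least 28.0-fold and *Kndc1* at least 18.02-fold.

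Monolayers exceeded D7 organoids for 5 members, *Gm5200*, *Pdlim4*, *Msc*, *Jund* and *Cd40*, where 21.1% of all genes were lower at D7 than in 2D. The log2 fold change of D7 over 2D was -2.97 ± 0.34 for *Pdlim4* (adjusted p = 1.73e-06, edgeR), -1.85 ± 0.32 for *Msc* (adjusted p = 0.000164, edgeR) and -1.20 ± 0.24 for *Jund* (adjusted p = 0.000654, edgeR). For *Cd40* it was -1.35 ± 0.48 (adjusted p = 0.0297, edgeR), a call that was lost without 2D replicate 1 (adjusted p = 0.236), without either D7 library (adjusted p = 0.112 and 0.105) and without scaling (adjusted p = 0.0667). *H19*, *Sh2d4b*, *Spib*, *Nfkbie*, *Heyl* and *Cmah* did not pass the test. *Spib* missed it with 0.83 ± 0.34 (adjusted p = 0.0525, edgeR) and passed without scaling (adjusted p = 0.019). For *H19* the direction turned with the D7 library used, from 0.20 without D7 replicate 1 to -1.69 without D7 replicate 2 (adjusted p = 0.634 and 0.00049, edgeR), and for *Cmah* from 2.00 to -1.11 (adjusted p = 0.0364 and 0.408, edgeR).

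Between D3 organoids and monolayers, both cultured for 3 days, members were called by edgeR at about the rate of all genes tested. Of the 76, 15 were higher at D3 (19.7%, against 19.3% of all genes tested) and 15 were higher in 2D (19.7%, against 19.1%). The median log2 fold change was -0.05 against 0.03 for all genes. Of the genes not regained, 17.0% were higher at D3 and 38.0% were higher in 2D, with a median of -0.64. The rule had required low D3 levels relative to *in vivo* and D7, so the comparison is not independent of it. With limma-voom, the test of the study, 7 members were higher at D3 and 11 were higher in 2D. The share of all genes by limma-voom is not given here, so these 2 counts cannot be set against a background. By edgeR, higher at D3 were *Lgi2*, *Kcnn3*, *Kremen2*, *Diras2*, *Actn3*, *Gm14207*, *Ednrb*, *Slc5a9*, *Wfikkn2*, *Hhip*, *Rassf2*, *Mmp2*, *Riiad1*, *Kndc1* and *Kit*. Higher in 2D were *H19*, *Hpgd*, *Sh2d4b*, *Gm5200*, *Msc*, *Jund*, *Spib*, *Cd40*, *Klhdc7a*, *Nfkbie*, *Bnip5*, *Heyl*, *Pdlim4*, *Cmah* and *Nckap5*.

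The D3 excess over 2D was 2.96 ± 0.40 on the log2 scale for *Wfikkn2* (adjusted p = 1.48e-05, edgeR), 2.07 ± 0.28 for *Lgi2* (adjusted p = 1.73e-05, edgeR) and 1.82 ± 0.36 for *Kcnn3* (adjusted p = 0.000639, edgeR). For *Wfikkn2* it was 2.37 without 2D replicate 1 and 3.94 without 2D replicate 2. In the other direction the log2 fold change of D3 over 2D was -7.02 ± 0.59 for *Msc* (adjusted p = 5.24e-08, edgeR), -4.36 ± 0.65 for *Cd40* (adjusted p = 4.43e-05, edgeR), -3.19 ± 0.28 for *Jund* (adjusted p = 8.22e-08, edgeR) and -2.38 ± 0.45 for *Spib* (adjusted p = 0.000432, edgeR). The values of *Msc* and *Cd40* rest on 1 and 5 reads at D3 over both libraries and depend on the prior count of the fit. Without D3 replicate 1 they were -9.30 and -3.51, and without D3 replicate 2 they were -6.03 and -8.67. Weaker calls did not hold throughout. *Bnip5* (adjusted p = 0.0426, edgeR) lost its call with DESeq2 (adjusted p = 0.0728) and with limma-voom (adjusted p = 0.242), *Kit* (adjusted p = 0.0407) lost it without 2D replicate 1 (adjusted p = 0.246) and without D3 replicate 1 (adjusted p = 0.188), and *Mmp2* (adjusted p = 0.00575) lost it without 2D replicate 2 (adjusted p = 0.076). With limma-voom *Kit* (adjusted p = 0.112), *Mmp2* (adjusted p = 0.0788) and *Slc5a9* (adjusted p = 0.0596) also lost theirs.

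**Figure D5:**
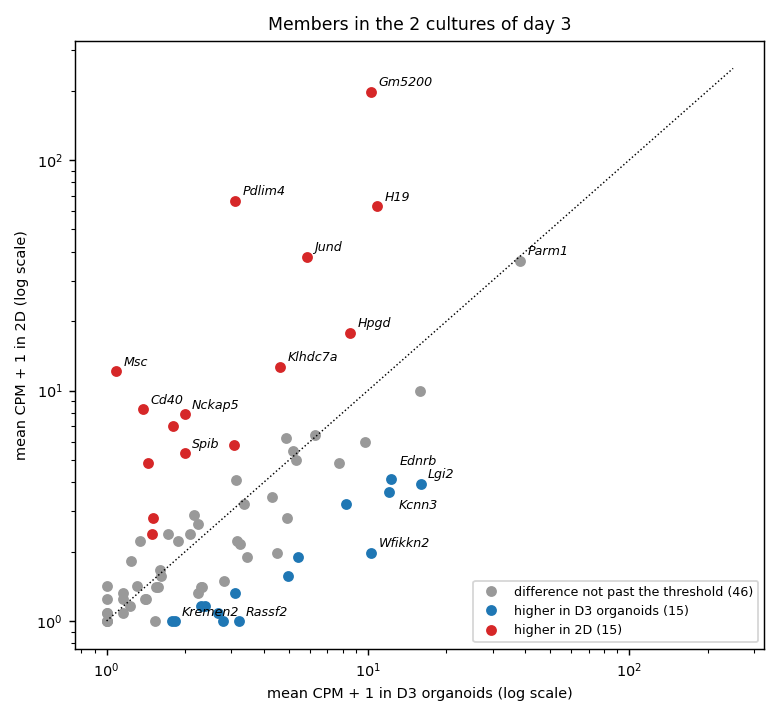
Mean level of the 76 members in D3 organoids (x axis) against 2D-cultured TECs (y axis), as CPM + 1 on log axes, with equality dotted and colours for edgeR calls at an adjusted p of at most 0.05. In each direction 15 members are called, *Pdlim4* and *Gm5200* lie farthest above the line, and most of the rest sit near 1 on both axes.

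The reads of a few members may come from other genes. *Gm5200*, the pseudogene, shares 23.2% of its 1221 words of 20 bases with *Krt18*, a simple epithelial keratin, but only 1.11% of its words of 50 bases in the last 500 bases, the end that 3′ libraries sample. *Gm5200* lay at 51.5 and 83.5 CPM *in vivo*, 7.45 and 11.1 CPM at D3, 29.8 and 36.8 CPM at D7 and 195 and 198 CPM in 2D. *Krt18* lay at 1674 and 1852 CPM *in vivo*, 280 and 273 CPM at D3, 513 and 493 CPM at D7 and 3258 and 2772 CPM in 2D, in the same order of groups. By that measure of words of 50 bases, all words of *Gm37563* are shared with *Gm67694*, 55.6% of those of *Serpina3g* with other Serpina3 genes, 23.7% of those of *Nrip2* with *Gm44596* and 17.96% of those of *Jund* with *Gm75675*. The 3′ ends of *Abi3bp*, *Actn3*, *Dnah9* and *Nrip2* lie within protein-coding genes of the opposite strand that reached 11.8 to 122 CPM in at least one library, which matters where reads were counted without strand.

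Members were scattered over the genome, with 1 to 7 on each of 19 chromosomes. Within 100 kb of another of the 92 genes that met the thresholds lay 3 members, or 3.95%, against 2.16% of genes tested. Besides *Gm14207*, these were the lncRNA *Gm11290*, which starts 4629 bases from the start of the cortical protease gene *Prss16*, and *Cd40*, whose nearest base is 99773 bases from *Mmp9*. *Gm11290* lay at 15.6 and 14.6 CPM *in vivo*, 0 and 0.305 CPM at D3, 2.10 and 4.13 CPM at D7 and 0 and 0.163 CPM in 2D. Long genes were frequent, since 21 of the 69 protein-coding members (30.4%) spanned over 100 kb, against 15.4% of protein-coding genes tested, although the median span was close (31.9 and 27.4 kb).

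The thresholds cut through a continuum. Just inside the *in vivo* minimum lay *Nat9* (10.3 CPM), *Il1r2* (10.3 CPM) and *Kit* (10.9 CPM), and just outside lay *Slc8a2* (9.41 CPM), *Isoc2a* (8.93 CPM) and *Runx1t1* (8.74 CPM). For the ratio of *in vivo* to D3, *Col8a2* (4.13), *Nat9* (4.37) and *Fam174b* (4.61) lay inside and *Gadd45g* (3.84), *Dcn* (3.76) and *Mtss2* (3.65) outside. For the ratio of D7 to D3, *Ppp1r27* (3.002), *Cd274* (3.06) and *Kcnn3* (3.10) lay inside and *Slc9a2* (2.96), *Ache* (2.94) and *Shisal1* (2.94) outside. A further 464 genes met the first 2 thresholds but not the D7 one. The 16 genes left out by name had regained shares from 0.29 (*Myh11*) to 0.86 (*Crip3*), with *Foxn1* at 0.62 (252 CPM *in vivo*, 9.87 CPM at D3 and 74.5 CPM at D7). *Myh11* lay just under the lowest share of a member, and the other 15 lay within the range of the members.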

How the data were processed

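QuantSeq 3′ libraries were sequenced on a NextSeq 500, and the counts deposited by the authors are raw reads per gene from a STAR alignment (GRCm39), neither filtered nor scaled. The annotation release and strand used in counting are not given in the sources used here. Of 56923 genes, 56236 matched GENCODE and 687 did not. Totals were 5084715 to 7612532 counts, of which 16.6 to 24.3% were 18S ribosomal RNA. Precision is limited to 2 libraries per group, and floors cover counting error only.

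Rule values were CPM on total counts. Tests used edgeR 4.0.16 in R 4.3.3 (quasi-likelihood, TMM scaling, 1 model of the 4 groups, Benjamini-Hochberg over the 14504 genes that reached 1 CPM in 3 or more libraries). The procedure was also run on simulated counts for *in vivo* against 2D. It called 75% of 4-fold changes, 43.75% of 2-fold changes and 10 unchanged genes, with 14137 genes tested, so a 2-fold change can be missed. Changed genes were drawn at random from all genes tested, at their mean level over all libraries. The rates thus do not describe members near the floor or the other comparisons. DESeq2 1.42.0 and limma-voom (limma 3.58.1), the test of the study, were alternatives. The submitters' notes name R 4.1.2, edgeR and limma. Tables were joined in Python 3.11.15.

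The members and gene lists were chosen with earlier results of these data known. Named members are the 20 highest *in vivo*, the 10 with the highest D7 to D3 ratio, the 5 highest and 5 lowest in 2D relative to *in vivo*, those on the gene lists, the 3 nearest to each threshold on either side, and the 5 highest and 5 lowest regained shares. Those named beyond this rule were chosen after their values were seen, as were the groups by role. Results on some members are not reported here.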

Additional observations from a re-analysis of the deposited data

How the results depend on the processing

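The number of members depended on the rule's settings. It was 26 with every threshold 1.5 times as strict, 47 when both replicates had to meet the rule separately, 73 with TMM-scaled totals and 97 without the 18S gene in the totals, and leaving out 1 library gave 72 to 99. The highest of these was without D3 replicate 2 and shared 69 of the 76 members. The median regained share was 0.54 with 5 CPM added and 0.57 to 0.63 without 1 library. In the tests against 2D, a minimum mean of 10 CPM left fewer members to test, a number not given here. That minimum kept 41 members higher *in vivo*, 39 higher at D7 and 9 lower at D3. The median log2 fold change *in vivo* over 2D was then 4.42, and 4.68 to 4.90 without 1 library. That of D7 over 2D was 3.30 with limma-voom, 3.36 without scaling and 3.12 to 3.28 without 1 library. That of D3 over 2D, -0.05, had no stable sign, with 0.50 for means of at least 10 CPM, 0.0811 without scaling, -0.16 with limma-voom, and -0.349 to 0.0174 without 1 library. With limma-voom 7 members were higher at D3 than in 2D. That count and the other counts of called members in this paragraph are given without a share over all genes. They cannot be set against a background. Without 1 library, 68 to 71 members were higher *in vivo*, 59 to 65 higher and 4 or 5 lower at D7, and 12 to 16 higher and 12 to 15 lower at D3. Same-numbered libraries deviated together only weakly (r = 0.03 to 0.13 across genes), and the numbers mark no stated pairing. With a replicate block 71 members were higher and 2 lower *in vivo*, 65 higher and 5 lower at D7, and 17 higher and 15 lower at D3. *H19* (0.20 and -1.69 without D7 replicate 1 and 2) and *Cmah* (2.00 and -1.11) turned direction between D7 and 2D. The causes were not tested. With 22 members at or under 3 counts per 2D library, small differences between 2D and D3 could not be detected at this depth.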

Other observations

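The lists around 3 single members showed how far those members stood with their pathway. *Heyl* is the one member on a list of 18 Notch pathway genes. Of the 16 tested, 5 rose and 2 fell from D3 to D7, with a median log2 change of -0.12 against 0.06 for all genes tested, of which 10.9% rose and 9.91% fell (edgeR, adjusted p of at most 0.05). *Heyl* is one of the 5, and the rule had used that contrast for it. *Hey1*, a related Notch target, lay at 184 and 164 CPM *in vivo*, 109 and 118 CPM at D3, 190 and 172 CPM at D7 and 17.0 and 13.5 CPM in 2D, and *Hes1* at 646 and 442 CPM *in vivo*, 188 and 203 CPM at D3, 94.6 and 54.9 CPM at D7 and 255 and 205 CPM in 2D, so *Hes1* was lowest at D7.

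*Jund* is the one member on a list of 21 immediate early genes. Handling and dissociation of cells are known to induce several genes of this class. Of the 20 tested, 2 rose and 2 fell from D3 to D7 and 18 were higher *in vivo* than at D7, as were 16.8% of all genes tested. *Jund* is one of the 2 that rose, which the rule had required of it. *Fos* lay at 388 and 370 CPM *in vivo*, 6.74 and 4.27 CPM at D3, 2.89 and 4.33 CPM at D7 and 10.05 and 17.1 CPM in 2D, with no return at D7.

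*Cyp26b1* is the one member among 24 genes of retinoid and xenobiotic metabolism. Of the 19 tested, 13 rose and 2 fell from D3 to D7, and 14 were lower *in vivo* than at D7, as were 18% of all genes tested. *Cyp26b1* is one of the 13, which the rule had required of it. *Dhrs3*, which reduces retinal to retinol, lay at 36.6 and 41.7 CPM *in vivo*, 108 and 138 CPM at D3, 516 and 516 CPM at D7 and 65.2 and 65.8 CPM in 2D. *Rarb*, a retinoic acid receptor, lay at 1.40 and 0.714 CPM *in vivo*, 24.5 and 21.9 CPM at D3, 50.05 and 40.3 CPM at D7 and 6.92 and 10.1 CPM in 2D. In contrast to *Cyp26b1*, both were lowest *in vivo*.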
